A study of Mus musculus with 12 samples.

Results

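The unfolded protein response and the integrated stress response were followed through 37 genes of the mouse liver, taken from a named list of endoplasmic reticulum (ER) chaperones, stress sensors, ER-associated degradation factors and targets of the transcription factors ATF4 and CHOP. The 37 genes were found among the 55471 gene IDs of the deposited count table, and the list held 14 chaperones and folding factors, 4 sensors and transducers, 8 degradation factors and 11 genes of the ATF4/CHOP branch. A filter on low counts kept 36 of them among the 13866 genes tested. Stc2, a secreted glycoprotein gene of the ATF4/CHOP branch, did not pass it, with 0 to 0.667 CPM (counts relative to library size, scaled by the trimmed mean of M values) over all samples. Stranded mRNA-seq had been made from liver tissue of C57BL/6 mice in 4 groups of 3 samples. The groups were a standard diet, a MASLD diet (metabolic dysfunction-associated steatotic liver disease), the MASLD diet with 0.1xAza-TdC and the MASLD diet with 1xAza-TdC, a relative dose. Aza-TdC, a modified deoxycytidine, depletes the maintenance DNA methyltransferase DNMT1 once built into DNA, and the series addressed the role of DNMT1 in this disease. All groups shared the strain, no allele was labelled, and the absolute dose, diet composition, age and duration are not labelled. Whether each sample is another animal is not labelled, and the p-values here therefore rest on a sample-to-sample spread that could be technical in part.

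The ER lumen folds secreted and membrane proteins, and hepatocytes, which secrete most plasma proteins, hold a large ER. When unfolded proteins accumulate, the sensors IRE1 (Ern1), ATF6 and PERK (Eif2ak3) raise chaperone and degradation genes through spliced XBP1 and cleaved ATF6, and slow translation through phosphorylation of eIF2. Phosphorylated eIF2 favours translation of ATF4, which induces amino acid genes, CHOP (Ddit3) and feedback factors, also when other eIF2 kinases start it. Messenger RNA counts do not show splicing of Xbp1, cleavage of ATF6 or phosphorylation of the kinases.

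Depth ran from 30213048 to 41852606 counts per library, and replicate libraries differed by more than sampling noise. The hepatocyte markers, 10 of 10 above the filter, summed to 98600 to 192000 CPM per library, so the tissue label held in all 12 libraries. Their sum was 181000 to 192000 CPM on the standard diet, 98600 to 119000 on the MASLD diet, 99200 to 149000 at 0.1x and 115000 to 134000 at 1x. In bulk tissue, fewer cells of a type and less RNA per cell cannot be told apart. Macrophage markers (10 genes) summed to 88.6 to 141 CPM, 177 to 273, 223 to 256 and 95.6 to 176 in the same order of groups. On the MASLD diet 8 of 10 stellate cell markers, 7 of 10 sinusoidal endothelial markers and 4 of 8 tested cholangiocyte markers rose. In the order standard diet, MASLD diet, 0.1x and 1x, stellate markers summed to 308 to 330 CPM, 446 to 537, 350 to 490 and 342 to 440, and endothelial markers to 139 to 184, 222 to 256, 216 to 233 and 224 to 283. Cholangiocyte markers summed to 25.8 to 37.9 CPM on the standard diet, 46.2 to 62.1 at 0.1x and 32.4 to 42.2 at 1x, and on the MASLD diet to 176 in sample 4 against 60.8 and 59.9 in samples 3 and 5. Plasma and B cell markers, a cell type rich in ER, summed to 460 CPM in standard diet sample 5 and 8.66 to 35.2 CPM in the other 11 libraries, with Tnfrsf17 at 0 in all MASLD diet, 0.1x and 1x samples. The dependence of counts on GC content and on the length of transcripts (the trend named below) took 22.3% of the deviation variance in 0.1x sample 3, 18.6% in 1x sample 2, 12.1% in MASLD sample 5 and at most 9.6% in the others. The part of cell make-up in the results below was not tested, and values with that trend removed are given where they changed a call of a member.

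Many chaperone promoters carried a shared element, which is described here without a test. RefSeq promoter windows (build GRCm38.p6, 250 bases before to 50 after a start) were matched for 32 of the 37 members, all but Hyou1, Manf, Atf6, Derl1 and Ppp1r15b. The ER stress response element, searched on both strands as CCAAT, 9 bases of any kind and CCACG, stood in the windows of 9 members (28.1%) and in 39 of 32851 windows overall (0.119%). It was found in 7 of 12 chaperones (Calr, Canx, Creld2, Dnajc3, Hsp90b1, Hspa5 and Pdia6), in 2 of 7 degradation genes (Derl3 and Syvn1) and in 0 of 10 ATF4/CHOP genes. The members came from a named list of ER stress genes, so this share says nothing about the diet or the drug. At 1x against the MASLD diet, 2 of the 9 members with the element fell, and 2 of the 22 tested members with a window and no match fell. The upstream windows of 3 chaperone genes follow on the strand of each gene, without bases of annotated exons, and capitals mark the element or its reverse complement.
Calr, chr8:84846935-84847181, minus strand: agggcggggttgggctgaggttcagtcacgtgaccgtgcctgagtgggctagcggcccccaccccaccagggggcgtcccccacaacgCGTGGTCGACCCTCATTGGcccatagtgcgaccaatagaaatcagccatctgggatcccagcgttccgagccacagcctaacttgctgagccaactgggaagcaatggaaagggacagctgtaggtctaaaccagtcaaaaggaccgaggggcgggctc
Hsp90b1, chr10:86705510-86705694, minus strand: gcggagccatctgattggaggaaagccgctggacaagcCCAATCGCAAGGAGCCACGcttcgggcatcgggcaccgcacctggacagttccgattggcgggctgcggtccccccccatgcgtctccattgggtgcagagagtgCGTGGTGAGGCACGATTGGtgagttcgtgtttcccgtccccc
Creld2, chr15:88819396-88819645, plus strand: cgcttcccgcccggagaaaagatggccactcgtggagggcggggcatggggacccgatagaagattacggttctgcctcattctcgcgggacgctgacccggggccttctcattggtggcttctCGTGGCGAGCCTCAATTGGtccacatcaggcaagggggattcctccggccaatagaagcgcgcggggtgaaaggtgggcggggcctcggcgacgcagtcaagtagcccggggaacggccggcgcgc
In Hsp90b1 the element stood 2 times, once on each strand. The element of Hspa5, Pdia6 and Dnajc3, chaperone genes that differ in their values below, reads as follows with 5 bases on each side, on the plus strand.
Hspa5, chr2:34772020-34772048: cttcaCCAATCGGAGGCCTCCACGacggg
Pdia6, chr12:17266486-17266514: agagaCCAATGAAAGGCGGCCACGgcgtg
Dnajc3, chr14:118937822-118937850: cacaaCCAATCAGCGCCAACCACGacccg

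A shorter related element, ERSE-II, searched as ATTGG, 1 base of any kind and CCACG, stood in 12 windows of all genes (0.0365%), 2 of them members, Dnajb11 and Herpud1. The XBP1-bound motif TGACGTGG was found in 0 member windows and in 222 windows overall (0.676%). The C/EBP-ATF element bound by ATF4 and CHOP was searched as TGATGNAA. It stood in the windows of 5 members (Asns, Atf3, Chac1, Herpud1 and Trib3), 15.6% by gene, and in 1304 windows overall (3.97% by window). Herpud1 held both kinds of element, and its sites and those of Trib3, Chac1 and Atf3 are shown on the strand on which the element reads as spelled, with the element in capitals.
Herpud1, ERSE-II, chr8:94386372-94386392, plus strand: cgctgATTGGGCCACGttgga
Herpud1, C/EBP-ATF element, chr8:94386312-94386329, minus strand: cgggcTGATGCAAcccgc
Trib3, chr2:152344039-152344046, plus strand: TGATGTAA
Chac1, chr2:119351044-119351061, minus strand: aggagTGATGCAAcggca
Atf3, chr1:191183431-191183448, plus strand: cttggTGATGCAAgtgcg
A match is a run of letters and not a shown binding site, and the search windows were short.

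**Figure D1:**
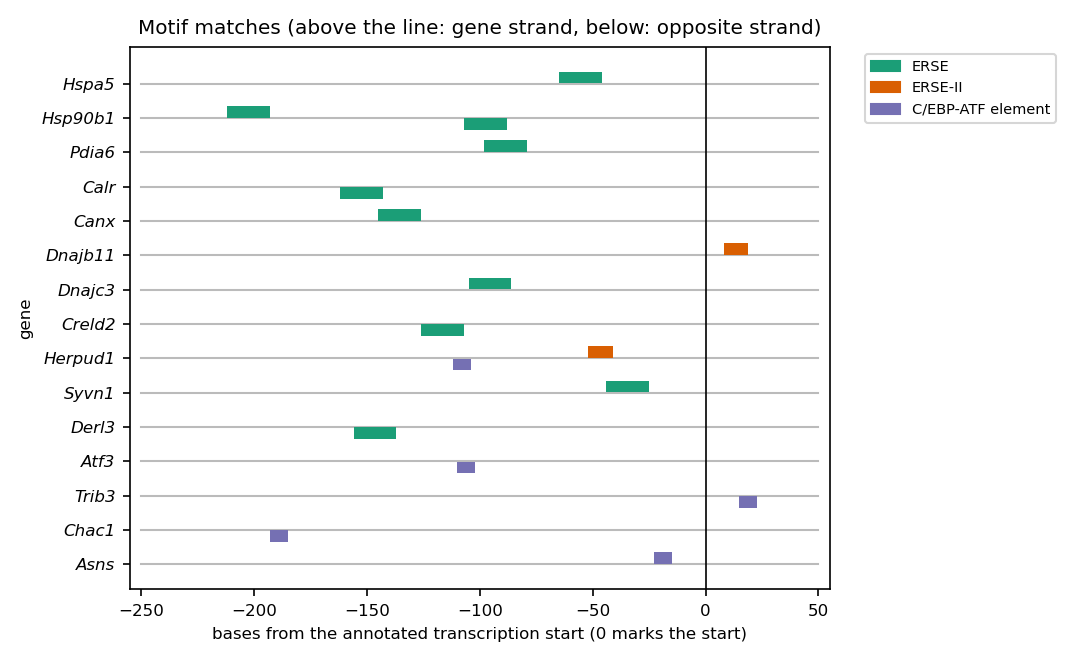
Matches of 3 promoter elements in the RefSeq windows of the members that held any, by distance in bases from the annotated start; boxes above a line lie on the gene strand and boxes below it on the opposite strand. ERSE boxes are seen in 7 chaperone genes and in Derl3 and Syvn1, and C/EBP-ATF boxes in Asns, Atf3, Chac1, Herpud1 and Trib3.

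Levels per exon length spanned a wide range. On the standard diet, Calr (calreticulin, a lectin chaperone) had the highest level, 477 CPM per kb, followed by Herpud1 at 345, Hspa5 at 197 and Pdia3 at 191 CPM per kb. Herpud1 encodes a membrane factor that gathers the degradation machinery, and Hspa5 encodes BiP, the main Hsp70 chaperone of the ER. The lowest members were Asns at 1.41, Atf3 at 0.412 and Stc2 at 0.0129 CPM per kb. The 3 sensors ran from 1.58 (Eif2ak3) to 7.22 CPM per kb (Atf6), while Xbp1, the transcription factor gene spliced by IRE1, stood at 88.5 CPM per kb. At 1x the order of the leading pair was exchanged, with Herpud1 at 260 ± 41.2 and Calr at 213 ± 8.77 CPM per kb (mean ± SD, n = 3), a gap about as large as the spread of Herpud1. On the standard diet Calr was at 477 ± 68.4 and Herpud1 at 345 ± 22.3 CPM per kb, while Hspa5 and Pdia3, next in order, differed by less than their spread (197 ± 10.6 and 191 ± 17.4). The plot of all members by sample shows most chaperones below the standard diet mean at 1x.

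**Figure D2:**
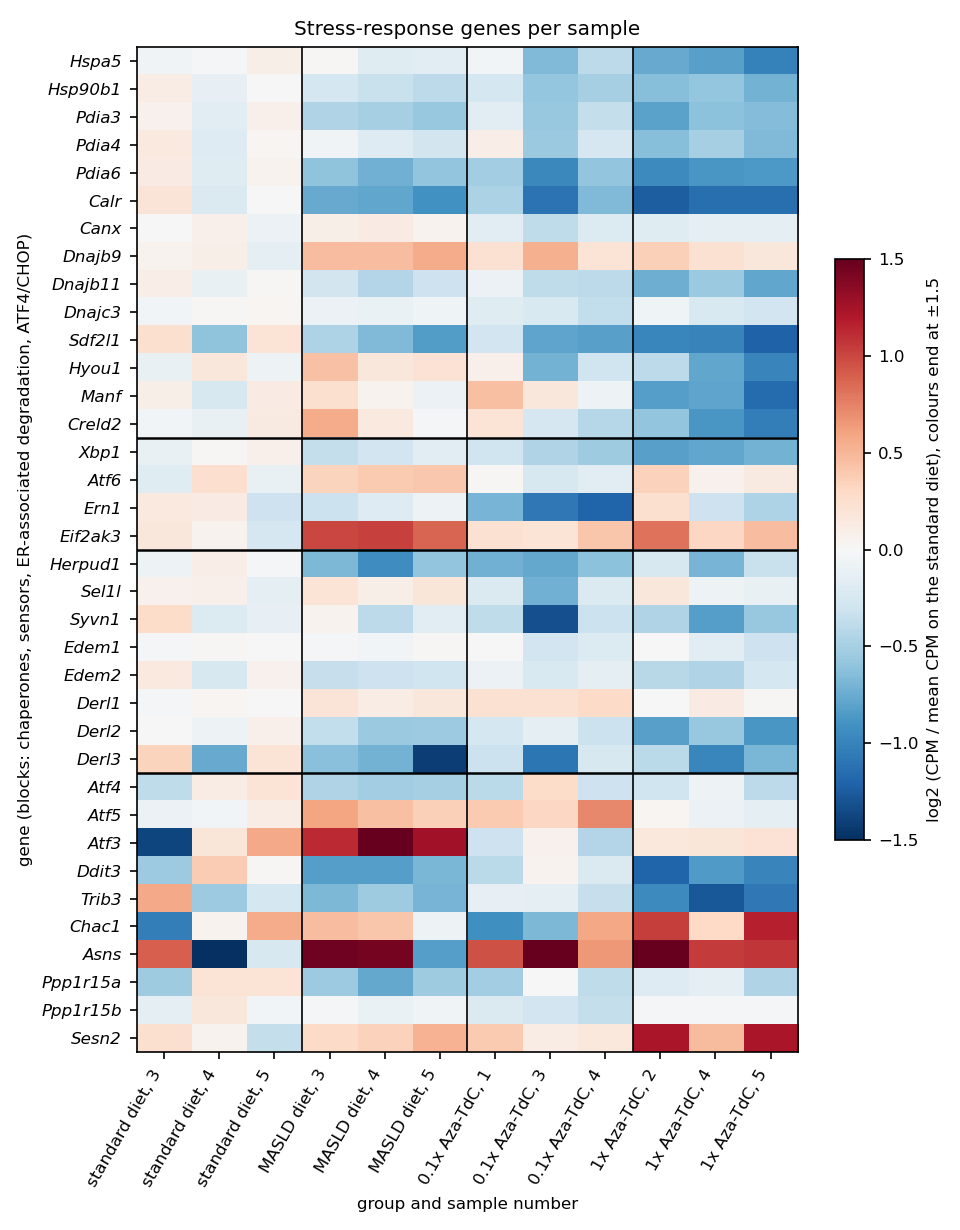
Each cell is the log2 ratio of a gene's CPM in a sample to its mean CPM on the standard diet, for the 36 members that passed the filter (rows, in blocks by role) and the 12 samples (columns, in groups of 3). Most chaperone rows are blue in the 3 columns of 1x, Dnajb9 and Eif2ak3 are red in all columns of the MASLD diet groups, and Asns varies widely within groups.

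Against the standard diet, livers on the MASLD diet had lower levels of 6 chaperone genes, of 4 degradation genes and of Atf4, Ddit3, Trib3 and Ppp1r15a, and higher levels of the sensor genes Eif2ak3 and Atf6, of the cochaperone Dnajb9 and of Atf3 and Atf5. Of the 36 members tested, 5 rose and 14 fell, and 29.5% of all genes tested passed in either direction (15.6% higher, 13.9% lower; edgeR quasi-likelihood test, adjusted p under 0.05). The median log2 fold change was -0.13 over the members and 0.03 over all genes. At 0.1x against the MASLD diet, 6 members fell, among them the 3 sensor genes Ern1, Atf6 and Eif2ak3, and 0 rose, where 13.2% of all genes passed (6.08% higher, 7.09% lower). At an unadjusted p under 0.05, 2 members were higher and 9 lower. DESeq2 called 0 members higher and 7 lower, and 2540 genes over all genes. At 1x against the MASLD diet, 6 members fell, 4 of them chaperones, and 0 rose, where 3.11% of all genes passed (1.49% higher, 1.62% lower). There, 2 members were higher and 15 lower at an unadjusted p under 0.05. DESeq2 called 1 member higher, Sesn2, and 7 lower, and 825 genes over all genes. The share of all genes at an unadjusted p under 0.05 was not counted for either dose, so the unadjusted member counts have no background beside them. The median over the members was -0.08 at 0.1x and -0.24 at 1x, and over all genes -0.02 and 0.00. Both doses were compared with the same 3 MASLD diet samples.

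The branches differed in their counts. Over all genes 15.6% rose and 13.9% fell on the MASLD diet, 6.08% rose and 7.09% fell at 0.1x, and 1.49% rose and 1.62% fell at 1x. At 0.1x the chaperones, degradation genes and ATF4/CHOP genes had 1 call each (7.14%, 12.5% and 10%), which is near the share of all genes that fell. Among the 14 chaperones, 1 rose and 6 fell on the MASLD diet, 1 fell at 0.1x and 4 fell at 1x, and in the last comparison all 14 log2 fold changes were below 0, with a median of -0.35. Of the 4 sensor and transducer genes, Eif2ak3 and Atf6 rose on the MASLD diet, both and Ern1 fell at 0.1x, and Xbp1 alone passed at 1x, where it fell. Among the 8 degradation genes, 4 fell on the MASLD diet, 1 fell at 0.1x and 0 passed at 1x, where 1 was higher and 1 lower at an unadjusted p under 0.05 and DESeq2 called 0. Of the 10 tested ATF4/CHOP genes, 2 rose and 4 fell on the MASLD diet, 1 fell at 0.1x (Atf3) and 1 fell at 1x (Atf5), with medians of 0.11, 0.17 and 0.13. The differences between branches were not tested.

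**Figure D3:**
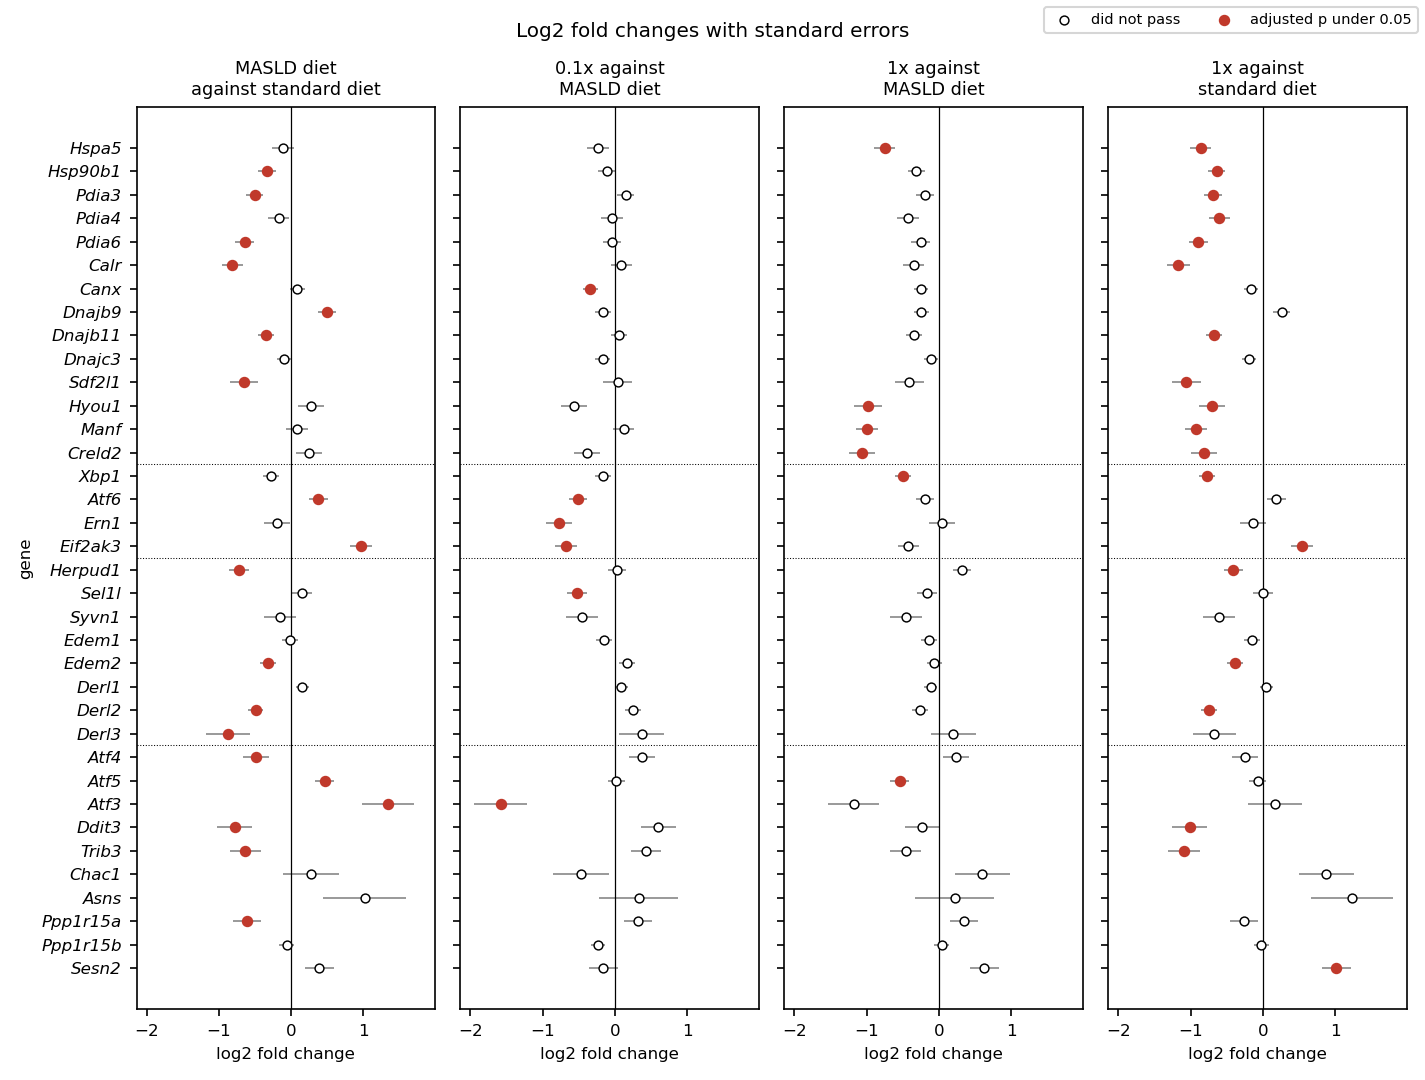
Log2 fold changes (horizontal axis, with standard errors) of the 36 members in 4 comparisons, in blocks for chaperones, sensors, degradation and ATF4/CHOP; filled points passed at an adjusted p under 0.05. At 1x all 14 chaperone points lie left of 0 against the MASLD diet, and 11 of them passed against the standard diet.

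BiP and several of its partners were lower at 1x. In the samples of each group, given in the order of their numbers here and below, Hspa5 was at 801, 816 and 885 CPM on the standard diet, 841, 734 and 740 on the MASLD diet, 813, 529 and 635 at 0.1x and 493, 474 and 414 at 1x. The 1x samples lay below the other 9, while the other groups overlapped. Against the MASLD diet Hspa5 fell by 40.4% of the mean at 1x (log2 fold change -0.75 ± 0.15, SE, adjusted p = 0.0149), and its change at 0.1x was -0.23 ± 0.15 (adjusted p = 0.303). Hyou1, a large Hsp70-like protein that exchanges nucleotide on BiP, was at 152, 186 and 156 CPM on the standard diet, 223, 185 and 192 on the MASLD diet, 173, 101 and 134 at 0.1x and 125, 96 and 82.7 at 1x. The 1x and MASLD diet samples did not overlap, whereas the 1x and 0.1x samples did. Hyou1 fell at 1x by 49.5% (log2 -0.98 ± 0.19, adjusted p = 0.012). Manf, a secreted factor retained with BiP, was at 87.2, 69.3 and 88.7 CPM on the standard diet, 96.9, 84.6 and 77.2 on the MASLD diet, 112, 92.2 and 77.5 at 0.1x and 46, 47.1 and 36.8 at 1x. Every 1x sample lay below every other sample, and the other 3 groups overlapped. Manf fell by 49.8% (log2 -0.99 ± 0.15, adjusted p = 0.00393), and its change at 0.1x was 0.12 ± 0.15. Creld2, an ER stress-inducible protein of the ER lumen, was at 34.6, 32.9 and 39.1 CPM on the standard diet, 52.2, 39.2 and 35.1 on the MASLD diet, 40.8, 29.9 and 26.5 at 0.1x and 23.5, 19.4 and 17.3 at 1x, with the 1x samples again below the other 9. Creld2 fell by 52.3% (log2 -1.07 ± 0.18, adjusted p = 0.00627). The calls of Manf and Creld2 were kept without each of the 6 libraries in turn. That of Hspa5 was lost without MASLD sample 3 or 4 or 1x sample 4 or 5 (adjusted p 0.0527 to 0.082), and that of Hyou1 without MASLD sample 3 or 1x sample 4 or 5 (0.0529 to 0.066). Manf shares 146 exon bases with Dcaf1 on the opposite strand (25.5 CPM on average against 76.3 for Manf) and 14 with Rbm15b, and the strand setting of the counting is not given in the sources used here.

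**Figure D4:**
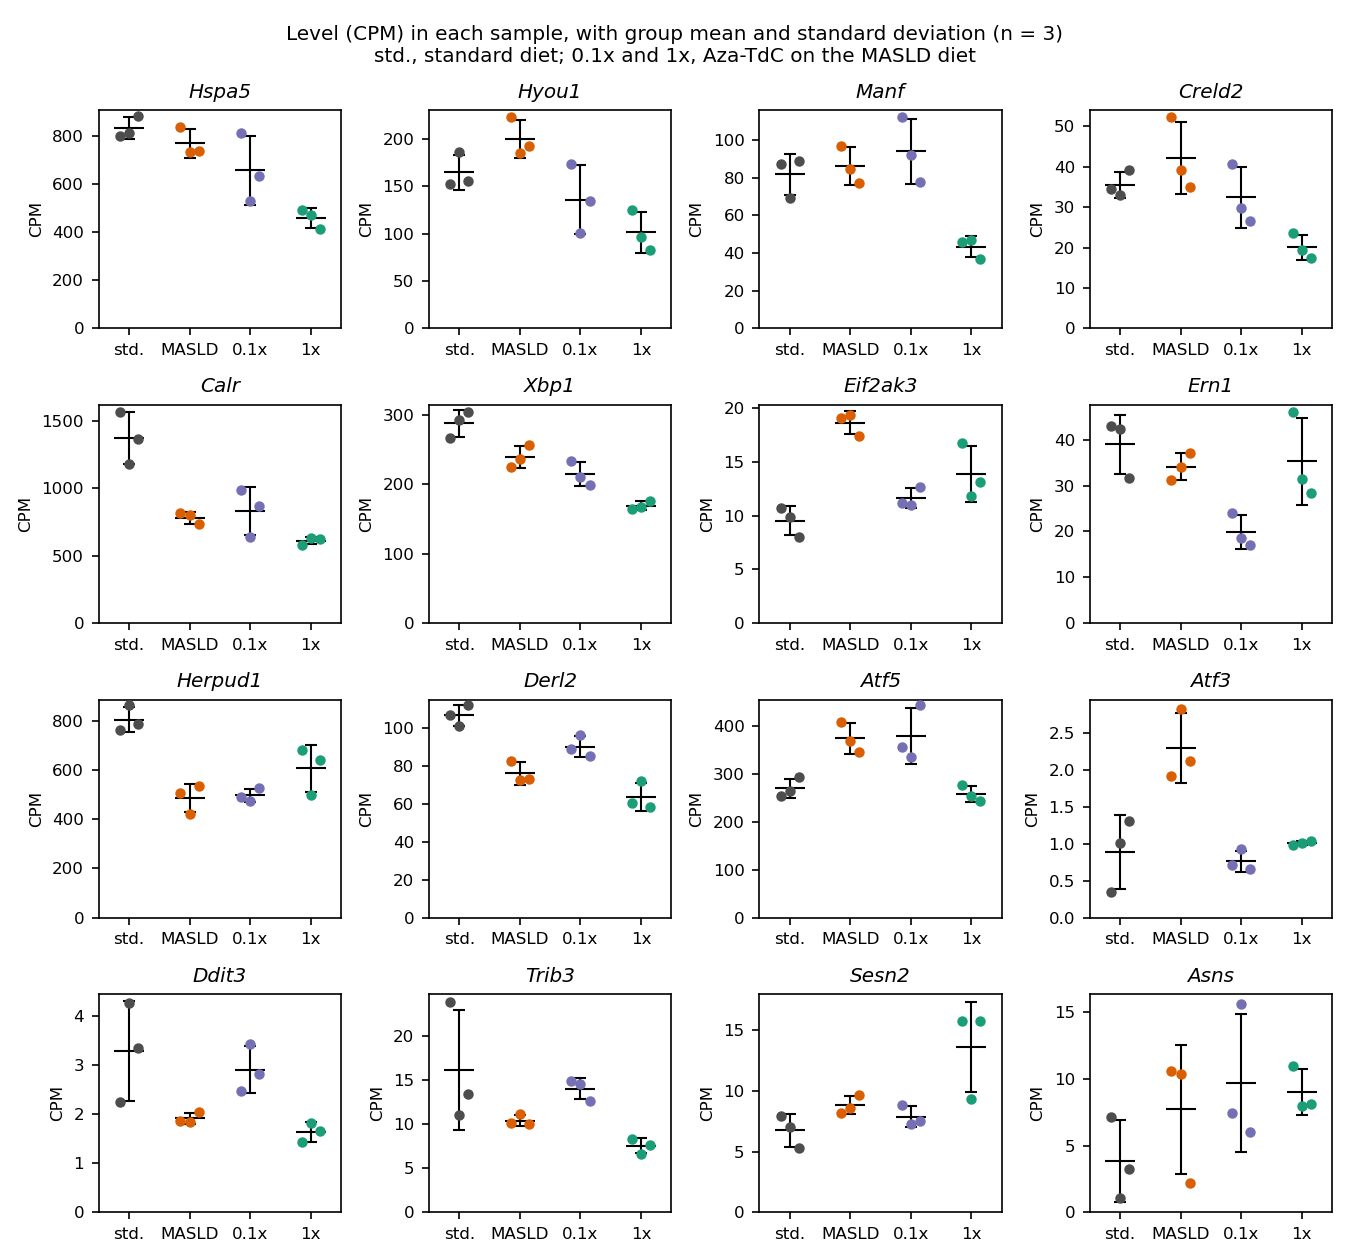
CPM of 16 members in each sample (points, vertical axes from 0) with the group mean and standard deviation (bars, n = 3) on the standard diet, the MASLD diet and at 0.1x and 1x Aza-TdC. For Hspa5, Manf, Creld2, Calr, Xbp1, Derl2, Ddit3 and Trib3 the 3 points of 1x lie below all others, and for Eif2ak3 and Atf3 the MASLD diet points lie above all others.

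Calr and the disulfide isomerases Pdia3 and Pdia6 were lower on the MASLD diet than on the standard diet. Calr was at 1570, 1180 and 1370 CPM on the standard diet, 816, 799 and 733 on the MASLD diet, 990, 637 and 868 at 0.1x and 583, 628 and 625 at 1x. The standard diet samples stood above all others and the 1x samples below all others. On the MASLD diet Calr fell by 43.1% (log2 -0.81 ± 0.15, adjusted p = 0.00133), and its change at 1x against the MASLD diet was -0.35 ± 0.15 (adjusted p = 0.252). Pdia6, a disulfide isomerase that also acts on IRE1 signalling, was at 450, 364 and 429 CPM on the standard diet, 272, 252 and 274 on the MASLD diet, 289, 212 and 276 at 0.1x and 214, 227 and 228 at 1x. All standard diet samples lay above the other 9, and the 0.1x samples overlapped those of the other MASLD diet groups. It fell on the MASLD diet by 35.9% (log2 -0.64 ± 0.13, adjusted p = 0.00182). Pdia3, the isomerase that works with calreticulin and calnexin, was at 629, 537 and 633 CPM on the standard diet, 440, 425 and 405 on the MASLD diet, 533, 404 and 469 at 0.1x and 343, 390 and 381 at 1x. The standard diet samples were again the highest and those at 1x the lowest. On the MASLD diet Pdia3 fell by 29.4% (log2 -0.50 ± 0.12, adjusted p = 0.00703). The calls of Calr, Pdia6 and Pdia3 were kept without each library in turn. Canx, the membrane-bound lectin chaperone calnexin, was at 297, 313 and 280 CPM on the standard diet, 316, 322 and 307 on the MASLD diet, 264, 228 and 257 at 0.1x and 261, 269 and 268 at 1x. Canx fell at 0.1x (log2 -0.34 ± 0.10, adjusted p = 0.0407), with no overlap between the 0.1x and MASLD diet samples, and the call was lost without any 1 of those 6 libraries (adjusted p 0.0531 to 0.127) and with the trend removed (-0.28, adjusted p = 0.146). Pdia4, a further isomerase, ran from 135 to 236 CPM over all samples, and its changes on the MASLD diet and at each dose against it did not pass (lowest adjusted p 0.146, at 1x).

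The remaining chaperones differed in direction. Hsp90b1, the ER member of the Hsp90 family, was at 699, 594 and 653 CPM on the standard diet, 540, 513 and 494 on the MASLD diet, 540, 433 and 460 at 0.1x and 418, 435 and 396 at 1x. The standard diet samples exceeded all others, and the 1x samples lay below those on the MASLD diet. Hsp90b1 fell on the MASLD diet (log2 -0.33 ± 0.12, adjusted p = 0.0421). Dnajb11, a J-domain partner that delivers unfolded proteins to BiP, was at 125, 108 and 118 CPM on the standard diet, 96.5, 86.2 and 94.7 on the MASLD diet, 110, 89.9 and 89.4 at 0.1x and 70.5, 79.6 and 68.4 at 1x, with the 1x samples below the other 9. Dnajb11 fell on the MASLD diet (log2 -0.34 ± 0.11, adjusted p = 0.0354). Sdf2l1, a lumenal protein that works with Dnajb11, was at 43.6, 24.3 and 42.6 CPM on the standard diet, 26.8, 23.2 and 20.6 on the MASLD diet, 30.2, 21.3 and 20.9 at 0.1x and 18.7, 18.4 and 15.9 at 1x. Standard diet sample 4 lay among the MASLD diet samples, and samples 3 and 5 stood well above them. Sdf2l1 fell on the MASLD diet (log2 -0.65 ± 0.20, adjusted p = 0.025), and after removal of that trend its change was -0.40 (adjusted p = 0.152). The calls of Hsp90b1 and Dnajb11 were lost without standard diet sample 3 or 5 or any MASLD diet sample, with adjusted p 0.0745 to 0.122 and 0.0659 to 0.132, and that of Sdf2l1 without standard diet sample 3 or 5 or MASLD sample 4 or 5 (0.0732 to 0.101). Dnajb9, a J-domain protein that restrains IRE1 and is a classical XBP1 target, was at 28.9, 29.7 and 25.2 CPM on the standard diet, 38.6, 38.5 and 41.2 on the MASLD diet, 32.7, 40.3 and 32.1 at 0.1x and 35.7, 32.7 and 31.5 at 1x. It was the only chaperone that rose on the MASLD diet (log2 0.50 ± 0.12, adjusted p = 0.0049), with the standard diet samples below all others, and the call was kept without each library in turn. Dnajc3, an inhibitor of PERK that also assists BiP, ran from 182 to 239 CPM over all samples, and its change on the MASLD diet was -0.09 ± 0.10 (adjusted p = 0.553). With the trend removed it passed there at -0.23 (adjusted p = 0.0486).

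Among the sensors, Eif2ak3, which encodes PERK, moved most on the MASLD diet. Its samples were at 10.7, 9.88 and 8.02 CPM on the standard diet, 19.1, 19.4 and 17.4 on the MASLD diet, 11.2, 11 and 12.7 at 0.1x and 16.8, 11.8 and 13.1 at 1x. All MASLD diet samples lay above, and all standard diet samples below, every other sample. The mean on the MASLD diet was 1.95 times that on the standard diet (log2 0.97 ± 0.15, adjusted p = 2.5e-04), and the call was kept without each library in turn. Eif2ak3 fell at 0.1x (log2 -0.68 ± 0.15, adjusted p = 0.0135), a call lost without MASLD sample 4 (adjusted p 0.0566), and its change at 1x was -0.42 ± 0.15 (adjusted p = 0.141). With the trend removed the fall at 0.1x was -0.48 (adjusted p = 0.0471). Atf6, the membrane-bound transcription factor, was at 58.9, 79.3 and 61.7 CPM on the standard diet, 83.8, 87.6 and 88.4 on the MASLD diet, 67.2, 56.6 and 59 at 0.1x and 84.5, 69.7 and 73.3 at 1x. Atf6 rose on the MASLD diet (log2 0.38 ± 0.13, adjusted p = 0.0351) and fell at 0.1x (log2 -0.51 ± 0.13, adjusted p = 0.021). In neither comparison did the samples overlap. Ern1, which encodes IRE1, was at 43.1, 42.4 and 31.6 CPM on the standard diet, 31.3, 34 and 37.1 on the MASLD diet, 24, 18.5 and 17 at 0.1x and 46.1, 31.5 and 28.3 at 1x. The 0.1x samples lay below the other 9, which overlapped one another. Ern1 fell at 0.1x (log2 -0.78 ± 0.18, adjusted p = 0.0172), and its change at 1x was 0.05 ± 0.18. The falls of Atf6 and Ern1 at 0.1x did not pass with the trend removed (log2 -0.18, adjusted p = 0.329, and log2 -0.40, adjusted p = 0.158). They were also lost without single libraries, that of Atf6 without any MASLD diet sample or 0.1x sample 3 (adjusted p 0.0525 to 0.073) and that of Ern1 without MASLD sample 4 or 5 (0.0589 to 0.0653), and the rise of Atf6 was lost without standard diet sample 3 or 5 or any MASLD diet sample (0.0708 to 0.129) and with the trend removed (0.15, adjusted p = 0.26).

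Xbp1 had another order of groups. It was at 266, 292 and 304 CPM on the standard diet, 225, 236 and 256 on the MASLD diet, 233, 210 and 199 at 0.1x and 164, 167 and 176 at 1x. The standard diet samples lay above all others and the 1x samples below all others. Its change on the MASLD diet was -0.27 ± 0.11 (adjusted p = 0.0695), and Xbp1 fell by 29.2% at 1x (log2 -0.50 ± 0.11, adjusted p = 0.0217). That call was lost without any 1 of the 6 libraries compared (adjusted p 0.0548 to 0.103) and was kept with the trend removed, at -0.51 (adjusted p = 0.0124).

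Of the 8 genes of ER-associated degradation, which returns misfolded proteins to the cytosol for destruction, Herpud1, Derl2, Edem2 and Derl3 fell on the MASLD diet. Herpud1 was at 763, 863 and 787 CPM on the standard diet, 505, 423 and 533 on the MASLD diet, 490, 474 and 526 at 0.1x and 681, 498 and 639 at 1x. The standard diet samples exceeded all others, and the MASLD diet groups overlapped. On the MASLD diet Herpud1 fell by 39.5% (log2 -0.72 ± 0.14, adjusted p = 0.00113), and its changes at 0.1x and 1x were 0.03 ± 0.13 and 0.32 ± 0.13. Derl2, of the derlin family that forms the exit channel, was at 107, 101 and 112 CPM on the standard diet, 82.8, 72.5 and 72.9 on the MASLD diet, 89.1, 96.3 and 85.1 at 0.1x and 60.5, 72.1 and 58.2 at 1x, with the standard diet samples above and the 1x samples below all others. It fell on the MASLD diet (log2 -0.49 ± 0.11, adjusted p = 0.00422). Both calls were kept without each library in turn. Derl2 shares 231 exon bases with Mis12 on the opposite strand, at 13.6 CPM against 84.1 for Derl2. Edem2, which starts mannose trimming of misfolded glycoproteins, was at 91.7, 70.2 and 86.7 CPM on the standard diet, 65, 67 and 67.4 on the MASLD diet, 78.2, 71 and 74.6 at 0.1x and 62.1, 60.7 and 68.8 at 1x. It fell on the MASLD diet (log2 -0.32 ± 0.11, adjusted p = 0.0427). Derl3, a derlin abundant in secretory cells, was at 5.32, 2.5 and 4.88 CPM on the standard diet, 2.75, 2.59 and 1.59 on the MASLD diet, 3.38, 2 and 3.57 at 0.1x and 3.2, 2.14 and 2.64 at 1x. Its standard diet samples straddled those of the other groups, with sample 4 as low as the MASLD diet. Derl3 fell on the MASLD diet (log2 -0.87 ± 0.31, adjusted p = 0.0454). The calls of Edem2 and Derl3 were lost without standard diet sample 3 or 5 or any MASLD diet sample (adjusted p 0.0864 to 0.143 and 0.0582 to 0.16) and with the trend removed (-0.25, adjusted p = 0.0729, and -0.67, adjusted p = 0.116). Plasma and B cell markers summed to 35.2, 11.6 and 460 CPM in standard diet samples 3, 4 and 5, and their part in the level of Derl3 was not tested.

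Of the other degradation genes, Sel1l alone passed in a comparison with the MASLD diet. Sel1l, the adaptor of the HRD1 ligase, was at 138, 139 and 120 CPM on the standard diet, 152, 141 and 150 on the MASLD diet, 114, 80.6 and 114 at 0.1x and 149, 126 and 123 at 1x. The 0.1x samples lay below the other 9, and sample 3 was the lowest. Sel1l fell at 0.1x (log2 -0.52 ± 0.14, adjusted p = 0.0254). With the trend removed its change was -0.22 (adjusted p = 0.26), and without any MASLD diet sample or 0.1x sample 3 the call was lost (adjusted p 0.0589 to 0.0811). Syvn1, the HRD1 ligase, ran from 26.5 to 80.1 CPM over all samples, Edem1 from 121 to 153 and Derl1 from 129 to 159, and none of the 3 passed on the MASLD diet or at either dose against it. The lowest value of Syvn1 was in 0.1x sample 3, and this gene shares 91 exon bases with Mrpl49 on the opposite strand.

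In the ATF4/CHOP branch the transcription factors went in different directions on the MASLD diet. Atf4 was at 51.2, 71.7 and 76.5 CPM on the standard diet, 48.7, 46.4 and 47.2 on the MASLD diet, 50.2, 80.5 and 53.8 at 0.1x and 53.9, 63.1 and 50.7 at 1x. The MASLD diet samples were closely spaced and lay below the other 9. Atf4 fell on the MASLD diet (log2 -0.49 ± 0.18, adjusted p = 0.0492), and its changes at 0.1x and 1x were 0.38 ± 0.18 and 0.24 ± 0.18. Ddit3, which encodes the pro-death factor CHOP, was at 2.25, 4.27 and 3.34 CPM on the standard diet, 1.86, 1.85 and 2.04 on the MASLD diet, 2.48, 3.42 and 2.82 at 0.1x and 1.43, 1.82 and 1.66 at 1x. The 1x samples lay below all others, and the MASLD diet samples below those of the standard diet and 0.1x. Ddit3 fell on the MASLD diet (log2 -0.78 ± 0.24, adjusted p = 0.0248), and its changes at 0.1x and 1x were 0.60 ± 0.24 and -0.23 ± 0.24 (adjusted p = 0.107 and 0.73). The falls of Atf4 and Ddit3 did not pass with the trend removed (-0.39, adjusted p = 0.12, and -0.49, adjusted p = 0.113). They were lost without standard diet sample 4 or 5, and without MASLD sample 3 or 4 in both genes or 5 in Atf4 (adjusted p 0.0983 to 0.183 and 0.0633 to 0.123). Ddit3 shares 68 exon bases with Mars on the opposite strand, at 74.9 CPM against 2.44, so its low counts are uncertain where strand was not used. A further gene ID with the symbol Ddit3 shares 105 exon bases with it on the same strand and had 0 counts in all libraries. How reads in those bases were counted is not known. Atf5, a factor translated like ATF4, was at 255, 264 and 293 CPM on the standard diet, 409, 369 and 346 on the MASLD diet, 356, 336 and 445 at 0.1x and 277, 254 and 244 at 1x. The levels of the MASLD diet and 0.1x samples lay above those of the standard diet and 1x. Atf5 rose on the MASLD diet (log2 0.47 ± 0.13, adjusted p = 0.0116) and fell at 1x (log2 -0.54 ± 0.13, adjusted p = 0.0334). The rise was lost without MASLD sample 3 (adjusted p 0.0627), and the fall without MASLD sample 3 or 4 or any 1x sample (0.0659 to 0.172). Atf3, an early stress-induced factor, was at 0.341, 1.01 and 1.31 CPM on the standard diet, 1.92, 2.82 and 2.12 on the MASLD diet, 0.713, 0.924 and 0.655 at 0.1x and 0.988, 1.01 and 1.03 at 1x. The MASLD diet samples lay above the other 9. Atf3 rose on the MASLD diet (log2 1.35 ± 0.36, adjusted p = 0.0121) and fell at 0.1x (log2 -1.58 ± 0.37, adjusted p = 0.0168), from 2.29 to 0.764 CPM on average, and at 1x its change was -1.18 ± 0.35 (adjusted p = 0.0868). Without MASLD sample 4 the rise did not pass (adjusted p 0.061), nor did the fall without MASLD sample 4 or 5 (0.0502 to 0.0714).

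Among the effectors of this branch, Trib3 and Ppp1r15a fell on the MASLD diet. Trib3, a pseudokinase induced by CHOP, was at 23.9, 11.1 and 13.5 CPM on the standard diet, 10.1, 11.2 and 10.0 on the MASLD diet, 14.9, 14.6 and 12.7 at 0.1x and 8.37, 6.67 and 7.66 at 1x. Standard diet sample 3 stood far above samples 4 and 5, and the 1x samples lay below all others. Trib3 fell on the MASLD diet (log2 -0.63 ± 0.21, adjusted p = 0.0379). Ppp1r15a, which encodes GADD34, the inducible subunit that dephosphorylates eIF2, was at 9.82, 16.4 and 16.4 CPM on the standard diet, 9.7, 8.36 and 9.83 on the MASLD diet, 9.92, 14.1 and 10.9 at 0.1x and 12.4, 12.8 and 10.4 at 1x. Standard diet sample 3 lay among the MASLD diet samples. Ppp1r15a fell on the MASLD diet (log2 -0.61 ± 0.19, adjusted p = 0.0252). The call of Trib3 was lost without standard diet sample 3 or any MASLD diet sample (adjusted p 0.073 to 0.241) and with the trend removed (-0.55, adjusted p = 0.0811), and that of Ppp1r15a without standard diet sample 4 or 5 or MASLD sample 3 or 4 (0.0554 to 0.107). Asns, asparagine synthetase, was at 7.16, 1.11 and 3.26 CPM on the standard diet, 10.6, 10.4 and 2.17 on the MASLD diet, 7.44, 15.6 and 6.03 at 0.1x and 11, 7.97 and 8.11 at 1x. It spread widely within groups, with MASLD sample 5 far below samples 3 and 4, and did not pass in any comparison (log2 1.02 ± 0.57 on the MASLD diet, adjusted p = 0.198). Chac1, which degrades glutathione, ran from 3.04 to 14 CPM over all samples, and Ppp1r15b, the constitutive eIF2 phosphatase subunit, from 83.6 to 120 CPM, with no pass in any comparison. Sesn2, a stress-induced inhibitor of mTORC1, ran from 5.29 to 9.67 CPM in the standard diet, MASLD diet and 0.1x samples and was at 15.8, 9.38 and 15.8 CPM at 1x. Its change at 1x against the MASLD diet was 0.63 ± 0.20 (adjusted p = 0.101).

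Removing the trend with GC content and length changed the account of the lower dose more than that of the higher dose. At 0.1x, 2 of the 6 calls passed in it, those of Eif2ak3 and Atf3, and over all genes 495 passed in place of 1826. At 1x, all 6 calls passed in it, and over all genes 592 passed in place of 431. The 4 sensor and transducer genes had a median longest transcript of 5729 bases, against 2487 for the chaperones and 3176 for all genes tested. The trend was strongest in 0.1x sample 3, and without that library 3 members passed at 0.1x. Without MASLD sample 4, the sample high in cholangiocyte markers, 0 members passed at 0.1x (edgeR; 0 higher and 8 lower at an unadjusted p under 0.05; DESeq2 on all libraries called 7 lower), and the part of those cells was not tested. Calls at 0.1x also dropped without the other MASLD diet samples. Over all genes 594, 382 and 461 passed without MASLD samples 3, 4 and 5, in place of 1826.

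**Figure D5:**
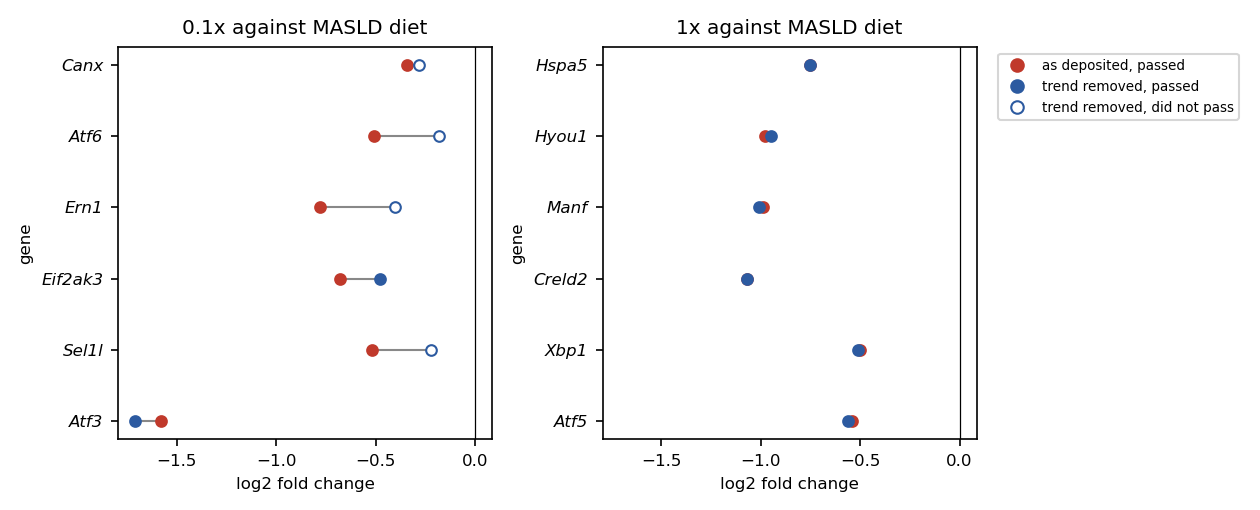
Log2 fold changes (horizontal axis) of the members that passed at 0.1x (left) or 1x (right) against the MASLD diet, as deposited and after removal of each library's trend with GC content and transcript length; open points did not pass. The points of Atf6, Ern1 and Sel1l move toward 0 at 0.1x, while the pairs at 1x nearly coincide.

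The 2 doses were compared directly, in samples that share no library. Of the 14 chaperones, 4 (Hspa5, Dnajb11, Manf and Creld2) were lower at 1x than at 0.1x, as were Xbp1, Derl2 and the factors Atf5, Ddit3 and Trib3, and Ern1 and Sesn2 were higher. Of the 36 members, 2 rose and 9 fell, where 13.0% of all genes passed (7.13% higher, 5.86% lower), and the median log2 difference was -0.18 against -0.01 for all genes. Manf differed most among the members that passed, at 93.9 ± 17.3 CPM at 0.1x and 43.3 ± 5.66 at 1x (mean ± SD, n = 3), a log2 difference of -1.12 ± 0.15 (adjusted p = 0.00214). It was also the only call kept without each library in turn. Trib3 (-0.90 ± 0.22, adjusted p = 0.019), Ddit3 (-0.83 ± 0.24, adjusted p = 0.0379) and Creld2 (-0.69 ± 0.18, adjusted p = 0.0241) followed. Smaller were the falls of Atf5 (-0.56 ± 0.13), Hspa5 (-0.52 ± 0.15), Derl2 (-0.50 ± 0.11), Dnajb11 (-0.40 ± 0.11) and Xbp1 (-0.34 ± 0.11). Ern1 rose by 0.83 ± 0.18 (adjusted p = 0.0137) and Sesn2 by 0.79 ± 0.20 (adjusted p = 0.0214). With the trend removed, 5 of the 11 calls passed, those of Hspa5, Manf, Derl2, Atf5 and Trib3, and Hyou1 passed in addition (-0.65, adjusted p = 0.0427). Those that did not pass were Dnajb11 (-0.37, adjusted p = 0.0638), Creld2 (-0.45, adjusted p = 0.166) and Xbp1 (-0.27, adjusted p = 0.132). Ddit3 (-0.39, adjusted p = 0.323), Ern1 (0.48, adjusted p = 0.0836) and Sesn2 (0.64, adjusted p = 0.0572) did not pass either. Leaving out 1x sample 2 or 1x sample 5 left 2 members that passed, and leaving out 0.1x sample 3 left 12.

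Set against the standard diet, the 1x livers had lower levels of 11 of the 14 chaperones, of Xbp1 and of 3 degradation genes. Of the 36 members, 2 rose (Eif2ak3 and Sesn2) and 17 fell, where 19.8% of all genes passed (9.91% higher, 9.84% lower), and the median log2 fold change was -0.39 against 0.02 for all genes. The chaperone median was -0.70. Calr fell by 55.5% (log2 -1.17 ± 0.16, adjusted p = 1.5e-04), Sdf2l1 fell by 52% (-1.06 ± 0.20, adjusted p = 0.00218), Manf fell by 47% (-0.92 ± 0.15, adjusted p = 8.6e-04) and Hspa5 fell by 44.8% (-0.86 ± 0.15, adjusted p = 9.9e-04). Xbp1 fell by 41.2% (-0.77 ± 0.11, adjusted p = 2.0e-04), and Derl2 fell by 40.3% (-0.75 ± 0.11, adjusted p = 3.4e-04). In the ATF4/CHOP branch Trib3 fell (-1.09 ± 0.22, adjusted p = 0.00277), Ddit3 fell (-1.01 ± 0.24, adjusted p = 0.00908) and Sesn2 rose (1.02 ± 0.20, adjusted p = 0.00259). In this comparison 15 of the 19 calls were kept without each library in turn. The others were Hyou1, lost without standard diet sample 4 or 1x sample 5 (adjusted p 0.0607 to 0.0737), Eif2ak3, without standard diet sample 5 or 1x sample 2 (0.095 to 0.112), Herpud1, without any standard diet sample or 1x sample 4 or 5 (0.0531 to 0.177), and Edem2, without standard diet sample 3 or 5 or 1x sample 2 or 4 (0.0863 to 0.1). With the trend removed Herpud1 did not pass (-0.30, adjusted p = 0.136), the other 18 did, and Dnajc3 (-0.33, adjusted p = 0.012), Syvn1 (-0.70, adjusted p = 0.0119) and Edem1 (-0.34, adjusted p = 0.0188) passed in addition. At 0.1x against the standard diet, 1 member rose, Atf5 (0.49 ± 0.13), and 7 fell (Hsp90b1, Pdia6, Calr, Sdf2l1, Xbp1, Ern1 and Herpud1), where 20.7% of all genes passed (9.85% higher, 10.9% lower). Without single libraries, the calls of Sdf2l1 (standard diet sample 3 or 5, 0.1x sample 3 or 4; adjusted p 0.114 to 0.142) and Atf5 (standard diet sample 4 or 0.1x sample 4; 0.0543 to 0.0616) were lost. With the trend removed all 8 passed, and Pdia3 (-0.42, adjusted p = 0.0249) and Syvn1 (-0.56, adjusted p = 0.0348) passed in addition. Both doses share the standard diet samples. Of the 9 members with an ER stress response element in their window, 5 fell at 1x against the standard diet, and of the 22 tested members with a window and no match, 10 fell and 2 rose. The summed hepatocyte markers were at 115000 to 134000 CPM at 1x and 181000 to 192000 CPM on the standard diet, with 7 of 10 markers lower, and their part in these falls was not tested.

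Further genes of the same pathways were counted from lists that hold no member. Of all genes, 29.5% were called on the MASLD diet (15.6% higher, 13.9% lower). Against the MASLD diet, 13.2% were called at 0.1x (6.08% higher, 7.09% lower) and 3.11% at 1x (1.49% higher, 1.62% lower). Other ER folding and disulfide genes (23 tested) had 2 higher and 9 lower on the MASLD diet. Ppib, a prolyl isomerase of the ER, fell from 395 ± 48.9 to 176 ± 2.78 CPM (log2 -1.17 ± 0.12, adjusted p = 6.3e-06) and Prdx4, an ER peroxidase, from 132 ± 15.4 to 67.9 ± 4.41 CPM (-0.96 ± 0.13, adjusted p = 1.1e-04), while Hspa13 rose (0.91 ± 0.15, adjusted p = 3.6e-04). At 0.1x against the MASLD diet 3 of the 23 rose and 3 fell (26.1%), and without 1 library 0 to 2 rose and 0 to 2 fell. At 1x only 1 of the 23 passed (4.35%), Hspa13 (-0.62 ± 0.15, adjusted p = 0.0338), a call lost without any 1 of the 6 libraries (adjusted p 0.0529 to 0.152). ER translocation and N-glycan transfer genes (25 tested) had 4 higher and 6 lower on the MASLD diet, 3 higher and 0 lower at 0.1x (9 and 0 at an unadjusted p under 0.05, 5 and 0 by DESeq2) and 0 either way at 1x (edgeR; 0 higher and 5 lower at an unadjusted p under 0.05, 0 and 1 by DESeq2). At 0.1x 12% of this list passed, near the 13.2% of all genes. DESeq2 called 2540 of all genes at 0.1x and 825 at 1x, and the unadjusted counts have no background beside them. Without 1 library the count of higher genes of the list at 0.1x ran from 0 to 3. For 1x against 0.1x, 8 of the 25 were lower, where 5.86% of all genes were, and without 1 library this count ran from 0 to 9. Other degradation genes (21 tested) had 3 higher and 5 lower on the MASLD diet. Edem3, a mannosidase relative of Edem2, rose (0.83 ± 0.15, adjusted p = 9.2e-04) and Aup1, which holds degradation factors on lipid droplets, fell (-0.70 ± 0.10, adjusted p = 1.1e-04). At 0.1x against the MASLD diet 3 of the 21 rose and 1 fell (19%), and without 1 library 0 to 3 rose and 0 to 2 fell. At 1x against it 1 of the 21 passed and fell (4.76%). Other ER stress transducers (11 tested) had 1 call on the MASLD diet, Atf6b (0.33 ± 0.12, adjusted p = 0.0465), lost without any 1 of the 6 libraries (adjusted p 0.0852 to 0.139).

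Further ATF4 and CHOP targets, many of amino acid and one-carbon metabolism, were counted in the same way. Of 24 tested genes, 12 rose and 3 fell on the MASLD diet, with a median log2 fold change of 0.61 against 0.03 for all genes, of which 15.6% rose and 13.9% fell. Without 1 library 8 to 11 of the 24 rose. Fgf21, a hormone that the liver releases under nutrient stress, rose from 1.23 ± 0.577 to 14.7 ± 4.39 CPM (3.56 ± 0.31, adjusted p = 2.1e-06), and Psat1, of serine synthesis, from 0.706 ± 0.211 to 8.80 ± 3.33 CPM (3.64 ± 0.44, adjusted p = 3.5e-05). Cth, which makes cysteine from cystathionine, fell from 470 ± 56.9 to 98.7 ± 6.49 CPM (-2.25 ± 0.13, adjusted p = 5.6e-08), and the mitochondrial serine enzyme Shmt2 fell as well (-0.66 ± 0.14, adjusted p = 0.00246). These 4 calls were kept without each library in turn. At 0.1x against the MASLD diet 2 of the 24 rose and 1 fell (12.5%, beside 13.2% of all genes), and without 1 library 0 to 2 rose and 0 to 2 fell. At 1x against the MASLD diet, Ddit4, an mTORC1 inhibitor, rose (1.12 ± 0.22, adjusted p = 0.0133) and Mthfd2, a mitochondrial folate enzyme, fell (-1.23 ± 0.31, adjusted p = 0.0454). These calls were lost without MASLD sample 3 or 4 or 1x sample 2, and that of Mthfd2 also without 1x sample 4 or 5 (adjusted p 0.0509 to 0.0636 and 0.0524 to 0.2). A list of 13 genes held eIF2 kinases, eIF2 and eIF2B subunits, Impact and Eif4ebp1. Of these, 2 rose on the MASLD diet (15.4%, near the 15.6% of all genes that rose). They were Impact, an inhibitor of the kinase GCN2 (1.56 ± 0.18, adjusted p = 2.0e-05), and Eif2ak2, the kinase PKR (0.87 ± 0.19, adjusted p = 0.00323). Neither was lost without any library.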

How the data were processed

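The submitters deposited gene counts for 12 libraries. Per the submitters' processing notes, reads were aligned to mm10 with STAR 2.7.3a. The counting tool and its strand setting were not named there. Of 55471 gene IDs, 55230 matched GENCODE vM21. The others held 0.00328% of the counts and were kept. No column lay outside the 12 samples (0 such columns). Counts were tested with edgeR 4.0.16 (R 4.3.3; filterByExpr, TMM, quasi-likelihood F test on group, all libraries in 1 fit, Benjamini-Hochberg over 13866 genes, threshold 0.05). The SE is the log2 fold change over the square root of F. The test was checked on simulated data. Alternatives were DESeq2 1.42.0, RLE factors, no filter, a mean of 1 CPM, 2 groups only, the replicate number as a block, removal of GC and length trends (splines, 5 df) and leaving out each library. Members that passed on the MASLD diet or at a dose against it, and Hspa5, Xbp1, Atf4, Ddit3, Asns and Trib3, were given by sample. In further pathway lists, up to 2 genes a direction, by smallest adjusted p and with at least 1 CPM, could be named. The members and lists were chosen with earlier results of these data known.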

Additional observations from a re-analysis of the deposited data

Results flagged for a closer look

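For 11 members the effects of the 2 doses, each set against the same MASLD diet samples, differed by a direct test between the doses (edgeR quasi-likelihood test, 1x minus 0.1x, log2 scale ± SE). They were 30.6% of the members tested, and 13.0% of all genes passed in the same test (7.13% higher, 5.86% lower). Lower at 1x among the chaperones were Manf (-1.12 ± 0.15, adjusted p = 0.00214), Creld2 (-0.69 ± 0.18, adjusted p = 0.0241), Hspa5 (-0.52 ± 0.15, adjusted p = 0.0331) and Dnajb11 (-0.40 ± 0.11, adjusted p = 0.0332). Xbp1 (-0.34 ± 0.11, adjusted p = 0.0467) and the degradation gene Derl2 (-0.50 ± 0.11, adjusted p = 0.0134) were lower too. In the ATF4/CHOP branch Trib3 (-0.90 ± 0.22, adjusted p = 0.0190), Ddit3 (-0.83 ± 0.24, adjusted p = 0.0379) and Atf5 (-0.56 ± 0.13, adjusted p = 0.0145) were lower and Sesn2 was higher (0.79 ± 0.20, adjusted p = 0.0214). Ern1, the IRE1 gene, was higher at 1x (0.83 ± 0.18, adjusted p = 0.0137). Of these 11 calls, 1 (Manf) was kept without each library in turn. With the trend with GC content and length removed, 5 passed (Hspa5, Manf, Derl2, Atf5 and Trib3). In a fit with the replicate number as a block, limited as given below, 0 of 13866 genes passed (1639 at an unadjusted p under 0.05).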

How the results depend on the processing

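Called members numbered 19 on the MASLD diet, 6 at 0.1x, 6 at 1x, 11 for 1x against 0.1x, and 8 and 19 for 0.1x and 1x against the standard diet. Without each library in turn they ranged from 8 to 16, 0 to 6, 2 to 5, 2 to 12, 7 to 11 and 16 to 18. At 0.1x, 0 passed without MASLD sample 4 (edgeR; 0 higher and 8 lower at an unadjusted p under 0.05) and 1 without MASLD sample 5. Trend removal left 2 at 0.1x and 6 for 1x against 0.1x. Fits of 2 groups only left 6 for 1x against 0.1x and 4 for 0.1x against the standard diet, where DESeq2 called 16. Without a filter 10 passed at 1x.

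Same-numbered samples did not deviate together (12 pairs, r from -0.215 to 0.0757), so the numbers were not taken to pair samples. The 1x sample titled 5 has number 8 in its library name. It was numbered by its title here and in the block, and the lowest and highest r came from other pairs. Number 1 was held only by a 0.1x sample and number 2 only by a 1x sample. In the block fit these libraries had blocks of their own and added nothing to the comparisons. Number 4 alone was shared by the 2 doses. The low counts of this fit in comparisons with a dose therefore cannot show whether the groups differ. With a replicate block 11 members passed on the MASLD diet, 0 at 0.1x (2 higher and 9 lower at an unadjusted p under 0.05), 3 at 1x and 0 for 1x against 0.1x (2 and 6), and with the trend removed as well 11, 0 (1 and 10), 3 and 0 (2 and 5).

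Over all genes, calls at 0.1x were 1826, or 33 with the block, 495 with the trend removed, 1 with both and 382 to 1599 without a library. At 1x they were 431, or 825 by DESeq2, 1131 unfiltered, 1013 with 2 groups, 53 with the block, 74 with both and 83 to 396 without a library. For 1x against 0.1x they were 1802, or 744 with 2 groups, 0 with the block (1639 unadjusted), 656 with the trend removed, 0 with both (1165 unadjusted; 2464 by DESeq2) and 210 to 1844 without a library. Against the standard diet, 0.1x gave 2872 (1660 with 2 groups, 1379 with the block, 1642 with both, 1790 to 2619 without a library) and 1x gave 2739 (1122, 1347 and 1699 to 2559). The MASLD diet gave 4085, or 2654 to 3850 without a library.

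Of single-gene values, 999 kept direction and side of the threshold, 251 lost and 10 gained the call, and 14 reversed. None of the reversed values had passed. For Atf4, 1x against 0.1x (-0.14) ranged from -0.26 to 0.11 (without 0.1x sample 3) when libraries were left out, and 0.1x against the standard diet (-0.11) became 0.02 with the replicate block, 0.02 with block and trend removal and -0.36 to 0.01 (without 0.1x sample 1) when libraries were left out. In the last comparison Ddit3 (-0.18) ranged from -0.39 to 0.05 (without standard diet sample 4) and Trib3 (-0.20) from -0.41 to 0.19 (without sample 3). For Asns, 0.1x against the MASLD diet (0.33) became -0.08 with block and trend removal, -0.12 without MASLD sample 5 and -0.20 without 0.1x sample 3 (up to 0.62). Asns at 1x (0.22) ranged from -0.22 (without MASLD sample 5) to 0.52, and 1x against 0.1x (-0.10) became 0.48 with the block, 0.08 with the trend removed, 0.63 with both and -0.35 to 0.42 (the last without 0.1x sample 3) when libraries were left out. The cause was not tested.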

Other observations

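Chaperones outside the ER were counted as well. Of 20 cytosolic heat shock genes, 5 rose and 1 fell on the MASLD diet, where 29.5% of all genes passed. Hspb1, a small heat shock protein, rose from 18.5 ± 2.81 to 49.6 ± 11.6 CPM (log2 1.43 ± 0.21, adjusted p = 2.0e-04) and Hspa4l, an exchange factor of Hsp70, from 10.5 ± 1.02 to 20.8 ± 1.22 CPM (0.98 ± 0.14, adjusted p = 1.6e-04). Hspb8, a small heat shock protein of autophagy, fell from 271 ± 35.9 to 174 ± 22.5 CPM (-0.64 ± 0.12, adjusted p = 0.00147). At 0.1x against the MASLD diet 3 of the 20 fell, where 7.09% of all genes did, among them Hspa4l (-0.55 ± 0.14, adjusted p = 0.0236) and Bag3, a cochaperone of Hsp70 (-0.60 ± 0.16, adjusted p = 0.0252). The count ran from 0 to 5 without 1 library, and with the trend removed Hspa4l did not pass (-0.25, adjusted p = 0.268). At 1x against the MASLD diet 2 of the 20 fell, where 1.62% of all genes did, Hsph1, a further exchange factor (-0.74 ± 0.13, adjusted p = 0.0101), and Hsp90aa1, the inducible cytosolic Hsp90 (-0.62 ± 0.15, adjusted p = 0.0379). The call of Hsph1 was lost without MASLD sample 3 or 1x sample 4 (adjusted p 0.0514 to 0.066), and that of Hsp90aa1 without MASLD sample 3 or 4 or any 1x sample (0.0629 to 0.212).

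Over all genes 29.5% passed on the MASLD diet, 6.08% rose at 0.1x against it and 3.11% passed at 1x against it. On the MASLD diet 10% of the mitochondrial list and 8.33% of the synthetases below passed, under the share of all genes. Of 10 mitochondrial chaperones and proteases, 1 fell on the MASLD diet, the protease subunit Clpp (-0.58 ± 0.12, adjusted p = 0.00283). At 0.1x against it 2 rose, Clpp (0.48 ± 0.12, adjusted p = 0.0241) and the chaperonin Hspe1 (0.63 ± 0.17, adjusted p = 0.0276). Neither rise passed with the trend removed (0.15, adjusted p = 0.372, and 0.14, adjusted p = 0.472), and the count ran from 0 to 2 without 1 library. None passed at 1x against the MASLD diet (edgeR, 0 called, 0 at an unadjusted p under 0.05, 0 by DESeq2). Of 12 cytosolic aminoacyl-tRNA synthetases, which charge tRNAs with amino acids, Gars rose on the MASLD diet (0.32 ± 0.10, adjusted p = 0.0248), which did not pass (adjusted p 0.0644 to 0.106) when MASLD sample 3, MASLD sample 4, standard diet sample 4 or standard diet sample 5 was left out.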
